A study of Mus musculus with 16 samples.

Results

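Klotho (Kl), the enzymes and the receptor of vitamin D, and the transporters that reclaim phosphate and calcium were followed in kidney and liver of LD-conditioned and ADV-conditioned mice. The 10 genes were Kl, Fgfr1, Slc34a1, Slc34a3, Cyp27b1, Cyp24a1, Vdr, Trpv5, Calb1 and Slc8a1. They were chosen by symbol and make 10 of the 32989 genes in the table of each organ, with 1 entry per symbol. All 10 passed the filter on low values in the kidney, and 2 of them, Fgfr1 and Slc8a1, passed it in the liver. Each organ had 4 male C57BL/6J mice in the LD condition (L63, L65, L86 and L104, light from 8:00 to 20:00) and 4 in the ADV condition (A75, A91, A94 and A115, an advance of the light phase by 8 h every 4 days). Both conditions had lasted 85 weeks when the mice were 97 weeks old, and kidney and liver came from the same 8 mice. All 8 were wild type, whole organs were homogenized without sorting of cells, and tissue was taken 13 to 16 h after the last light-on, so that each mouse gave 1 point of the day.

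The kidney is where these genes meet. The bone hormone FGF23 acts on tubule cells through a receptor that joins klotho, a co-receptor in the membrane, with FGFR1. Its signal lowers the sodium-phosphate cotransporters of the proximal tubule, which are encoded by Slc34a1 and Slc34a3, and turns vitamin D metabolism from activation by Cyp27b1 towards degradation by Cyp24a1. Active vitamin D binds its receptor, encoded by Vdr, which in turn raises transcription of Cyp24a1 and of genes for calcium transport. In the distal tubule calcium enters the cell through the channel TRPV5, is carried by calbindin (Calb1) and leaves through the sodium-calcium exchanger (Slc8a1) and a calcium pump.

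Levels were given as FPKM, fragments scaled to exon length and to library size. The libraries held between 15688495 and 18043306 fragments on genes in the kidney and between 21092501 and 24285055 in the liver. Kidney markers of the proximal tubule summed to between 17881 and 46629 FPKM in the kidneys, where Kap alone gave at least 16595 FPKM. In the livers they summed to between 37.5 and 42.8 FPKM, of which Aqp1 alone gave between 31.9 and 40.2 FPKM. There 3 of the 8 (Kap, Slc22a6 and Slc5a12) were at 0. Markers of hepatocytes summed to between 64963 and 79306 FPKM in the livers and to between 716 and 1079 FPKM in the kidneys, where Cyp2e1 alone gave at least 683 FPKM. In the kidney, 1 library stood apart from the rest. Mitochondrial genes took 33.8% of the fragments in A115, between 15.7% and 18.02% in the LD kidneys, and 10.7%, 13.1% and 9.43% in A75, A91 and A94. The kidney libraries also differed in how the level of a gene moved with the GC content of its transcript. Spearman's rho across the 13910 tested genes with a known transcript, between GC content and the log2 difference from the LD mean, was −0.72 in A115, but 0.63, 0.60 and 0.52 in A75, A91 and A94. In the LD kidneys it lay between −0.37 and 0.27, each against the other LD kidneys, and in the livers between −0.28 and 0.16. The 3 ADV kidneys other than A115 thus had the opposite trend to A115 and a stronger one than any LD kidney. Sequencing was shared between a pair of companies with different instruments. Which company sequenced which library is not given in the sources used here, and its part in this trend was not tested.

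The 10 transcripts spanned much of the range of GC content. It was 36.8% in Calb1, 40.2% in Slc8a1, 49.2% in Cyp24a1, 49.4% in Kl and 50.7% in Trpv5. It was 52.4% in Vdr, 53.6% in Cyp27b1, 55.4% in Fgfr1 and 56.4% in both Slc34a1 and Slc34a3. These values are from the GENCODE transcript closest in length, which was 4222 bases for Calb1 against 2856 bases of counted exon. For Slc34a1 it was 2433 against 3068 bases and for Trpv5 2025 against 2585 bases. The effect of these mismatches on GC content was not tested. Stretches of 90 coding bases from the pair richest in GC and the pair poorest in it are shown, since the kidney values of these 4 genes moved apart along this property. Capitals mark G and C. The stretches are from GRCm38 with the GENCODE M21 transcripts and were picked for a GC content close to that of the whole transcript. That of Slc34a3 is at chr2:25232419-25232508 on the minus strand in exon 4, that of Slc34a1 at chr13:55400699-55400788 on the plus strand in exon 3, that of Slc8a1 at chr17:81649456-81649545 on the minus strand in exon 1, and that of Calb1 at chr4:15904657-15904746 on the plus strand in exon 11.
Slc34a3: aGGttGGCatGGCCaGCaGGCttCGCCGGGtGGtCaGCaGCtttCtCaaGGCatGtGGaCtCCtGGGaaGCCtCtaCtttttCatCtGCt
Slc34a1: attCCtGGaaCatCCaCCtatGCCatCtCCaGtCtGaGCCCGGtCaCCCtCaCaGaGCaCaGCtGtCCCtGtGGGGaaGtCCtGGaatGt
Slc8a1: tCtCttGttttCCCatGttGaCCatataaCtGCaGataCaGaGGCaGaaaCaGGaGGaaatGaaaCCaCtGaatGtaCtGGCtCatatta
Calb1: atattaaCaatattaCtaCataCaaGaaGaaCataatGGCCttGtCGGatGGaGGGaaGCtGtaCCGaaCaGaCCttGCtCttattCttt
G and C made up 56.7% of the bases in each of the first pair of stretches, 40% in that of Slc8a1 and 37.8% in that of Calb1.

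Whether 85 weeks of the ADV condition went with other levels of these genes in the kidney was asked first. With all 8 mice, none of the 10 genes passed the test. By limma on log2(FPKM + 0.1) with Benjamini-Hochberg adjustment over the 14452 genes tested, 0 of 10 had an adjusted p under 0.05, against 0% of all genes, and 0 of 10 had an unadjusted p under 0.05, against 3.1% of all genes. By limma-voom on the fragments recovered from the table the counts were also 0 and 0. The LD and ADV values of every one of the 10 genes overlapped, while 2.8% of all genes tested did not overlap. The log2 fold change, as ADV minus LD, was below 0 for 7 of the 10 genes and had a median of −0.12, beside −0.024 over all genes. In bulk kidney fewer cells of a type and less RNA per cell cannot be told apart.

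**Figure D1:**
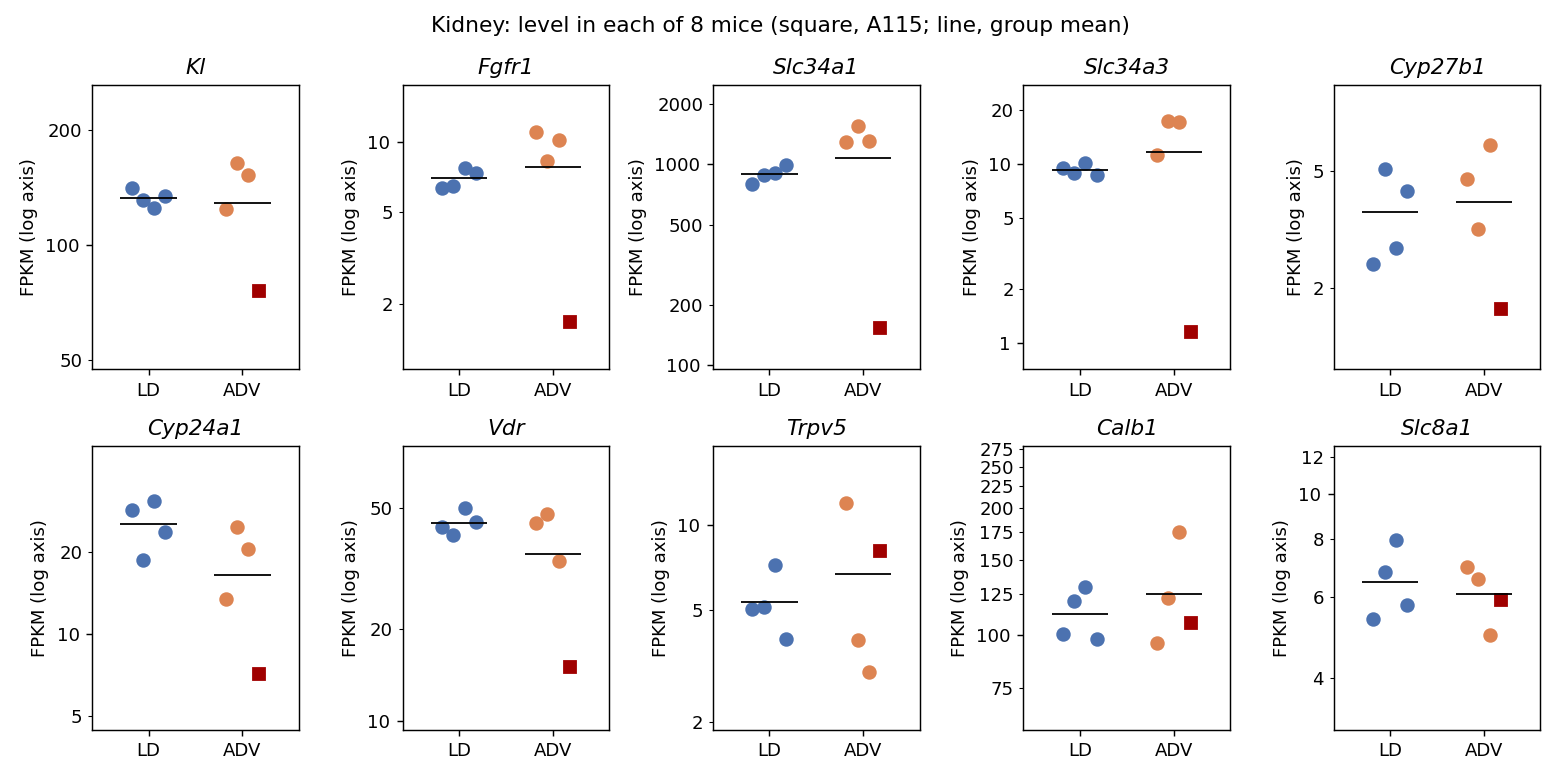
Level of each of the 10 genes in the kidney (FPKM, log axis, a scale of its own per gene) by condition. Points are mice, the square is A115 and the line is the mean of 4 mice. For Slc34a1, Slc34a3 and Fgfr1 the other 3 ADV mice lie above all 4 LD mice and A115 below them, and for Trpv5 A115 is the second highest.

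Klotho itself, on chr5:150952607-150993817 of GRCm38, was abundant in the kidney. Its level was 141, 131, 125 and 135 FPKM in L63, L65, L86 and L104, with a mean of 133 ± 6.47 (SD, n = 4). In the ADV condition it was 124, 164, 152 and 75.7 FPKM in A75, A91, A94 and A115, with a mean of 129 ± 39.4 (SD, n = 4). A91 and A94 were above every LD mouse, A75 was just below them, and A115 alone was far lower. ADV differed from LD by −0.10 on the log2 scale (SE 0.24, 95% interval −0.66 to 0.46), and p was 0.886 in a two-sided exact permutation test over the 70 assignments of the mice. Without A115 it was 0.14 (SE 0.11), with an adjusted p of 0.394 by limma. A fall of Kl beyond 0.66 on the log2 scale thus lay outside the interval for these 8 mice.

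Fgfr1, the receptor that klotho joins, is on chr8:25518759-25575718 and overlaps an antisense gene, Gm16159, which a stranded library can tell apart. Its kidney level was low beside that of Kl. It was 6.37, 6.46, 7.76 and 7.39 FPKM in the LD mice and 11.1, 8.29, 10.2 and 1.67 FPKM in A75, A91, A94 and A115, in that order. The means were 6.99 ± 0.687 in LD and 7.81 ± 4.26 in ADV (SD, n = 4 each). The log2 fold change was −0.14 (SE 0.56, exact permutation p = 1), below 0 although the ADV mean in FPKM was the higher one.

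The phosphate cotransporters gave the widest spread among ADV mice. Slc34a1, on chr13:55399648-55414695, carries most of the phosphate that the proximal tubule reclaims and had the highest level of the 10 genes. It was 801, 884, 906 and 992 FPKM in the LD mice, with a mean of 895 ± 78.4 (SD, n = 4). In the ADV mice it was 1292, 1553, 1312 and 154 FPKM, with a mean of 1078 ± 628 (SD, n = 4). Every LD value thus lay between that of A115 and those of the other 3 ADV mice. The log2 fold change was −0.16 (SE 0.70, exact permutation p = 1), below 0 although the ADV mean in FPKM was the higher one, since A115 weighs more on a log scale.

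Slc34a3, the second cotransporter of this tubule segment, is on chr2:25228897-25234234 and had the same order of the 4 ADV mice at a far lower level, though not of the LD mice. It was 9.46, 8.87, 10.2 and 8.68 FPKM in the LD mice and 11.2, 17.3, 17.2 and 1.14 FPKM in A75, A91, A94 and A115. The means were 9.30 ± 0.676 in LD and 11.7 ± 7.60 in ADV (SD, n = 4 each), and the value of A115 rested on 44.5 fragments. Its log2 fold change was −0.22 (SE 0.79, exact permutation p = 1), again below 0 although the ADV mean in FPKM was the higher one.

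Slc34a1, Slc34a3 and Fgfr1 were the genes whose call turned on A115. Without it all 3 were higher in the ADV condition, with log2 fold changes of 0.63 (SE 0.14) for Slc34a1, 0.68 (SE 0.16) for Slc34a3 and 0.48 (SE 0.13) for Fgfr1 and adjusted p of 0.0203, 0.0267 and 0.0392 by limma. The summed level of 3 fibroblast markers was 95.8, 36.5 and 117 FPKM in the kidneys of A75, A91 and A94, 103 in A115 and 33.2 to 57.5 in LD, so that A75 and A94, with the highest Fgfr1, exceeded every LD mouse. Of the 8 proximal tubule markers 2 lay above the LD range in all of A75, A91 and A94, and none lay below it in all 3. Slc5a2 was 113, 150 and 129 FPKM and Aqp1 305, 339 and 315 FPKM in A75, A91 and A94, against 62.2 to 82.4 and 257 to 295 in LD, while Kap was 16595, 28105 and 19600 against 26080 to 38938 in LD, and Slc7a13 and Slc5a12 were below the LD range in A75 and A94. The 6 markers of connecting tubule and collecting duct summed to between 239 and 340 FPKM in these 3 kidneys and to between 122 and 213 in LD. Aqp2, at 104.4, 187 and 200 FPKM against 35.7 to 94.7 in LD, gave most of this difference, Aqp3 and Avpr2 were also above the LD range in all 3, and Hsd11b2, Scnn1b and Scnn1g were not. The part of these markers in the levels of Slc34a1, Slc34a3 and Fgfr1 was not tested. In the same fit over 14475 genes, 18.8% of all genes were called, 16.1% as higher and 2.68% as lower, and all genes had a median of 0.20. The 3 of 10 therefore stand beside a kidney in which 2336 genes were called higher in the same 3 mice. When A115 was left out and the libraries were also scaled by the median ratio, 16% of all genes were called, 1203 (8.31%) as higher and 1115 (7.7%) as lower, and 0 of the 10 genes were called. The values then were 0.44 for Slc34a1, 0.49 for Slc34a3 and 0.30 for Fgfr1, with a smallest adjusted p of 0.0858 among the 10.

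Of the genes of vitamin D metabolism, Cyp27b1, on chr10:127048246-127053006, makes the active hormone in the proximal tubule and was among the lowest of the 10 genes. Its level was 2.42, 5.06, 2.74 and 4.28 FPKM in L63, L65, L86 and L104 and 4.69, 3.18, 6.14 and 1.69 FPKM in A75, A91, A94 and A115. The LD mean was 3.63 ± 1.26 and the ADV mean 3.92 ± 1.92 (SD, n = 4 each), and both conditions covered much the same range. Its log2 fold change was 0.029 (SE 0.42, 95% interval −0.94 to 0.998, exact permutation p = 0.971).

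Cyp24a1, on chr2:170482957-170497145, degrades the active hormone and had the largest fold change of the 10 genes with all 8 mice, though not without A115. It was 28.6, 18.7, 30.8 and 23.8 FPKM in the LD mice, with a mean of 25.5 ± 5.39 (SD, n = 4). In A75, A91, A94 and A115 it was 13.5, 24.8, 20.5 and 7.12 FPKM, with a mean of 16.5 ± 7.79 (SD, n = 4). A75 and A115 were below every LD mouse and the other ADV mice were within the LD range. On the log2 scale ADV minus LD was −0.75 (SE 0.38, exact permutation p = 0.143), and it was −0.40 (SE 0.23) without A115. By limma its unadjusted p was 0.0860 with the deposited values, 0.0332 with median-ratio scaling, 0.0280 with quantile normalization and 0.0448 with the mitochondrial genes left out, and the adjusted p was above 0.99 in all 4 of these fits.

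Vdr, on chr15:97854427-97908296, was 43.2, 40.7, 50.1 and 44.9 FPKM in the LD mice and 44.5, 47.9, 33.5 and 15.02 FPKM in A75, A91, A94 and A115. The LD mice were close together, with a mean of 44.7 ± 3.96, while the ADV mean was 35.2 ± 14.8 (SD, n = 4 each). A94 and A115 lay below every LD mouse. On the log2 scale the difference was −0.47 (SE 0.35, exact permutation p = 0.286) with all mice and −0.10 (SE 0.14) without A115.

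In the deposited values Trpv5, Calb1 and Slc8a1, the 3 of the 10 genes that serve distal calcium transport, were not low in A115, whereas S100g, a second calbindin of the wider list, was 159 FPKM there against 515 to 640 in LD. Trpv5, the entry channel, on chr6:41652770-41680723, was 5.04, 5.10, 7.23 and 3.94 FPKM in the LD mice and 11.9, 3.90, 3.01 and 8.06 FPKM in A75, A91, A94 and A115. A75 and A115 thus had the highest levels of the 8 mice and A91 and A94 the lowest. The means were 5.33 ± 1.38 in LD and 6.72 ± 4.09 in ADV (SD, n = 4 each), with a log2 fold change of 0.16 (SE 0.44, exact permutation p = 0.857).

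Calb1, the calcium carrier of the cytosol, on chr4:15881264-15906709, was almost as abundant as Kl. Its level was 100.5, 120.2, 129.97 and 97.9 FPKM in the LD mice and 95.5, 122.5, 175 and 106.5 FPKM in A75, A91, A94 and A115. The means were 112 ± 15.5 in LD and 125 ± 35.2 in ADV (SD, n = 4 each). Between the conditions the log2 fold change was 0.13 (SE 0.21, exact permutation p = 0.657), and A94 alone was above the LD range.

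Slc8a1, the exchanger on the blood side of the cell, on chr17:81373105-81738387, had the narrowest range over the 8 mice. It was 5.36, 6.78, 7.93 and 5.76 FPKM in the LD mice and 6.95, 6.54, 4.96 and 5.91 FPKM in A75, A91, A94 and A115. The means were 6.46 ± 1.15 in LD and 6.09 ± 0.863 in ADV (SD, n = 4 each). A log2 fold change of −0.078 (SE 0.19, 95% interval −0.51 to 0.36, exact permutation p = 0.629) was found.

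Set against the LD mean, the level in A115 was 12.2% for Slc34a3, 17.2% for Slc34a1, 23.9% for Fgfr1, 27.9% for Cyp24a1, 33.6% for Vdr, 46.6% for Cyp27b1 and 57.0% for Kl. It was 91.5% for Slc8a1, 94.96% for Calb1 and 151% for Trpv5. This order followed GC content in large part. Across the 10 genes, GC content and the log2 difference of A115 from LD had a Pearson r of −0.70 and a Spearman's rho of −0.77. For the mean of A75, A91 and A94 the values were 0.50 and 0.71. These are descriptions over 10 genes that share the same libraries. Over all genes tested the same was seen at larger scale. From the quintile of genes poorest in GC to the quintile richest in it, the median difference from LD went from 0.39 to −1.83 in A115, whereas it rose by 0.98 in A75, 0.61 in A91 and 0.78 in A94. Markers of tubule segments moved as well in A115. The summed level of 2 distal convoluted tubule markers was 36.8 FPKM there against 146 to 171 in LD, and that of 6 markers of connecting tubule and collecting duct was 23.8 FPKM against 122 to 213. For 8 proximal tubule markers the sum in A115 was the highest of all, at 46629 FPKM, of which Kap alone gave 45922. Of these 8, Kap and Slc5a12 (111 FPKM against 69.9 to 81.6 in LD) were above the LD range in A115 and Gatm was within it. The other 5 were below it, such as Slc5a2 with 7.51 FPKM against 62.2 to 82.4 in LD. The part of these markers in the levels of the 10 genes was not tested.

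**Figure D2:**
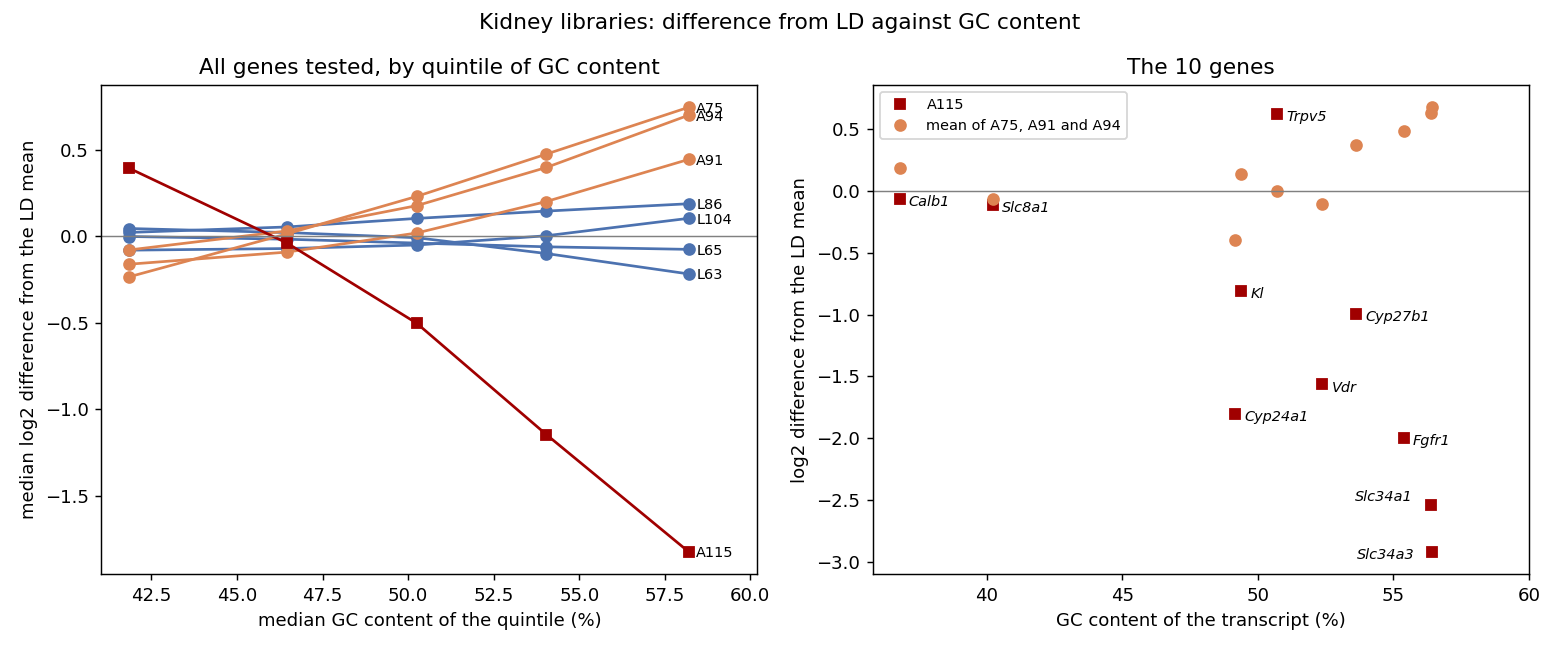
Left, median log2 difference from the LD mean (each LD mouse against the other LD mice) in each quintile of the tested genes by GC content of the transcript (%), with a line per kidney library. Right, the log2 difference from the LD mean against GC content for the 10 genes, as squares for A115 and circles for the mean of A75, A91 and A94. A115 falls to −1.83 in the richest quintile while A75, A91 and A94 rise, and Slc34a1 and Slc34a3 lie at the GC-rich end of both patterns.

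To see the values with this trend taken out, each kidney library was adjusted for it with a lowess curve, an alternative added after the data had been seen. The adjustment brings rho with GC content near 0 by construction, and rho then lay within 0.015 of 0 in every kidney. The level in A115 then came to 50.7% of the LD mean for Slc34a1, 38.4% for Slc34a3, 65.6% for Fgfr1, 36.3% for Cyp24a1, 61.5% for Vdr, 102% for Cyp27b1 and 75.02% for Kl. It fell to 60.5% for Calb1 and 66.5% for Slc8a1, which put both lowest in A115 of the 8 kidneys, and rose to 230% for Trpv5. For Slc34a1 and Slc34a3, A75, A91 and A94 no longer all lay above the LD mice. Adjusted Slc34a1 was 830, 1225 and 889 FPKM in A75, A91 and A94, against 820 to 953 FPKM in LD.

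With the adjustment and all 8 mice, 0 of the 10 genes and 0% of 13910 genes had an adjusted p under 0.05 by limma. At an unadjusted p under 0.05 there were 2 of the 10, against 7.51% of all genes. These were Vdr, at −0.44 (SE 0.16, unadjusted p = 0.0232 by limma), and Cyp24a1, at −0.72 (SE 0.30, unadjusted p = 0.0392 by limma), with an adjusted p of 0.659 for both. Adjusted Vdr was 34.2, 43.7, 27.1 and 27.1 FPKM in A75, A91, A94 and A115 and between 41.3 and 46.3 FPKM in the LD mice, so that 3 of the 4 ADV mice lay below the LD range. Adjusted Cyp24a1 was 11.9, 24.8, 18.6 and 9.12 FPKM in the ADV mice against 18.9 to 29.1 in LD.

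With the adjustment and without A115, again 0 of the 10 genes and 0% of 13929 genes were called. Slc34a1 came to 0.13 (SE 0.17), Slc34a3 to 0.18 (SE 0.20) and Fgfr1 to 0.048 (SE 0.086), each within its error of 0. Vdr kept a value below 0, at −0.36 (SE 0.14, adjusted p = 0.238 by limma), as did Cyp24a1, at −0.49 (SE 0.24). Calb1 was at 0.47 (SE 0.16, adjusted p = 0.186 by limma). In this fit 18.8% of all genes had an unadjusted p under 0.05, beside 2 of the 10. Since A75, A91 and A94 all had a GC trend of the same sign and every LD kidney a weaker one, the condition and the trend cannot be told apart in the 7 mice. The adjustment would also take away a change of expression that itself followed GC content.

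**Figure D3:**
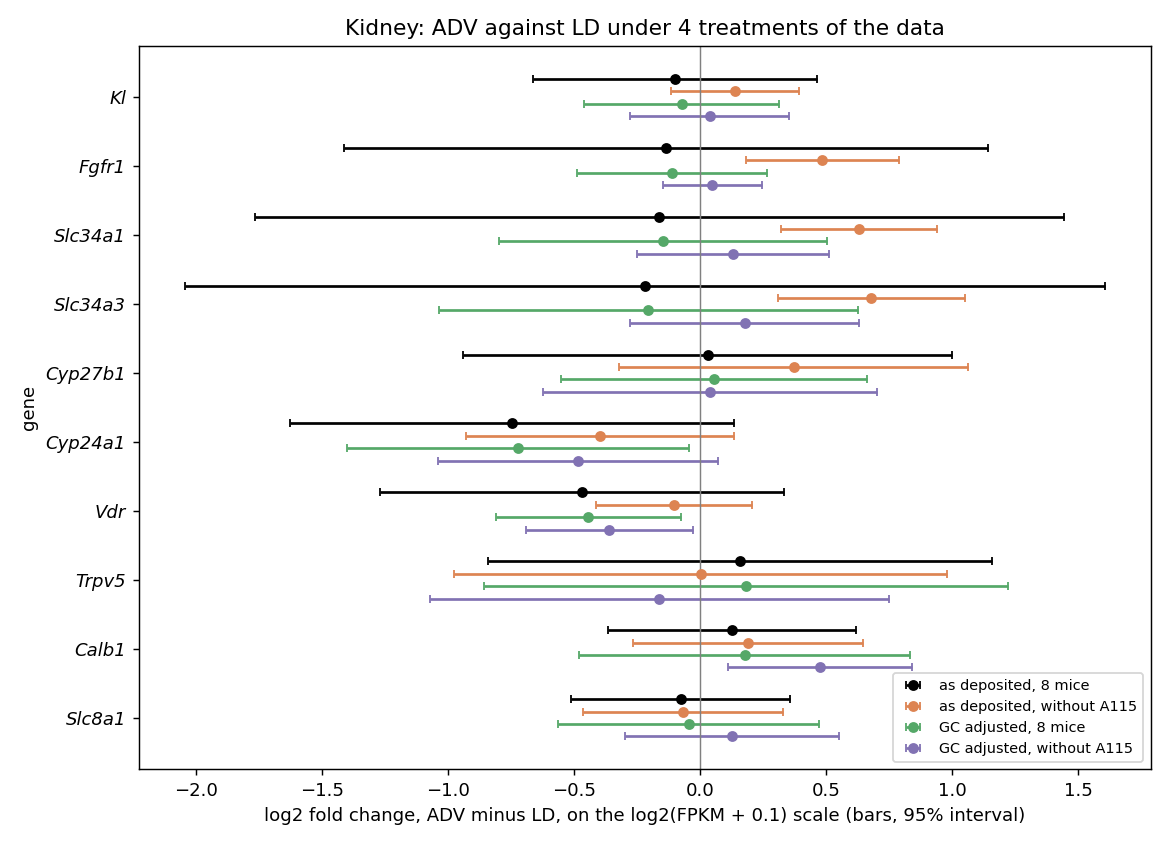
Log2 fold change in the kidney (ADV minus LD, on the log2(FPKM + 0.1) scale) with its 95% interval from limma for the 10 genes under 4 treatments of the data. The intervals of Slc34a1, Slc34a3 and Fgfr1 leave out 0 in the deposited values without A115 and include it in the other 3 treatments, whereas the values for Cyp24a1 and Vdr lie below 0 in all 4.

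The wider pathways were described with 3 lists of 57 genes in all, written from general knowledge. Of 20 genes of the phosphate and FGF23 axis, 16 were tested in the kidney, 5 with a fold change above 0 and 11 below it, with a median of −0.23. Of 12 genes of vitamin D metabolism and uptake, 10 were tested, 4 above 0 and 6 below it, with a median of −0.10. Of 25 genes of distal calcium and magnesium transport, 24 were tested, 5 above 0 and 19 below it, with a median of −0.11. Over all genes 6707 were above 0 and 7745 below it, with a median of −0.024. In the 3 lists 0 genes passed at an adjusted p of 0.05 and 1 passed at an unadjusted p of 0.05 by limma, against 0% and 3.1% of all genes.

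That gene was Wnk1, a kinase that acts on the sodium-chloride cotransporter of the distal tubule. Its level was 55.7, 46.8, 44.4 and 44.8 FPKM in the LD mice and 38.9, 37.8, 28.4 and 30.1 FPKM in A75, A91, A94 and A115. All 4 ADV mice lay below all 4 LD mice, and 1.83% of the genes tested were so. The log2 fold change was −0.51 (SE 0.16, unadjusted p = 0.0122 and adjusted p = 0.9999 by limma). It was −0.49 after the GC adjustment, −0.46 (adjusted p = 0.0480 by limma) without A115, and −0.55 (adjusted p = 0.133 by limma) with both. The transcript of Wnk1 had a GC content of 49.1%.

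The other genes with the largest fold changes in their lists did not pass the test at either level. In the distal list they were S100g at −0.68 (SE 0.49), Egf, a growth factor that sustains magnesium uptake, at −0.50 (SE 0.43), and Trpm6, the magnesium channel, at −0.43 (SE 0.39). In the phosphate list they were Slc34a2, a cotransporter better known from gut and lung, at 0.57 (SE 0.70), the scaffold proteins of the brush border Slc9a3r1 and Slc9a3r2, at −0.44 (SE 0.56) and −0.34 (SE 0.65), and the receptor Fgfr4, at −0.39 (SE 0.64). In the vitamin D list they were Gc, the plasma binding protein, at 1.25 (SE 0.63), the hydroxylases Cyp2r1, at 0.70 (SE 0.32), and Cyp27a1, at −0.24 (SE 0.51), and Cubn, an uptake receptor, at −0.24 (SE 0.14). Slc9a3r1 shows the range between mice. It was 135 to 164 FPKM in LD, 174, 178 and 175 in A75, A91 and A94, and 30.4 in A115.

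Without A115 the lists held 9 genes called higher and 2 called lower, against 16.1% and 2.68% of all genes. In the phosphate list Pth1r, the receptor of parathyroid hormone, was higher by 0.35 and Galnt3, which glycosylates FGF23, was lower, at −0.48. In the vitamin D list 5 of 10 were higher, namely Amn, a partner of Cubn, by 1.20, the nuclear receptors Rxrb by 0.96 and Rxra by 0.48, Dhcr7, an enzyme that takes the precursor of vitamin D towards cholesterol, by 0.68, and Cyp27a1 by 0.33. In the distal list Cldn19, a tight junction protein of the thick ascending limb, was higher by 1.51, the cytosolic calcium binder Pvalb by 0.87 and the kinase Wnk4 by 0.46, and Wnk1 was lower. The GC content was between 49.9% and 62.9% in the 9 higher genes and was 44.1% in Galnt3. With the GC adjustment, with or without A115, 0 genes of the 3 lists were called, and in both fits 0% of all genes were called. With the adjustment and without A115, 12 of the 16 phosphate genes lay below 0, with a median of −0.17 beside 0.0073 over all genes. Of these 12, 6 had an unadjusted p under 0.05 by limma. Of all genes, 9.87% were lower at that level and 18.8% passed it in either direction. In the same fit the vitamin D list had 6 of 10 genes above 0, with a median of 0.098, and 3 higher and 1 lower at this level. The distal list had 9 of 24 above 0, with a median of −0.060, and 2 higher and 2 lower at this level. Over all 13929 genes 1240 were higher and 1375 lower at an unadjusted p under 0.05 by limma. Among the 6 phosphate genes were Slc9a3r1, at −0.43 (SE 0.10), Slc9a3r2, at −0.39 (SE 0.14), and Fgfr4, at −0.31 (SE 0.13), whose deposited values in the same 7 mice gave 0.19, 0.39 and 0.33.

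**Figure D4:**
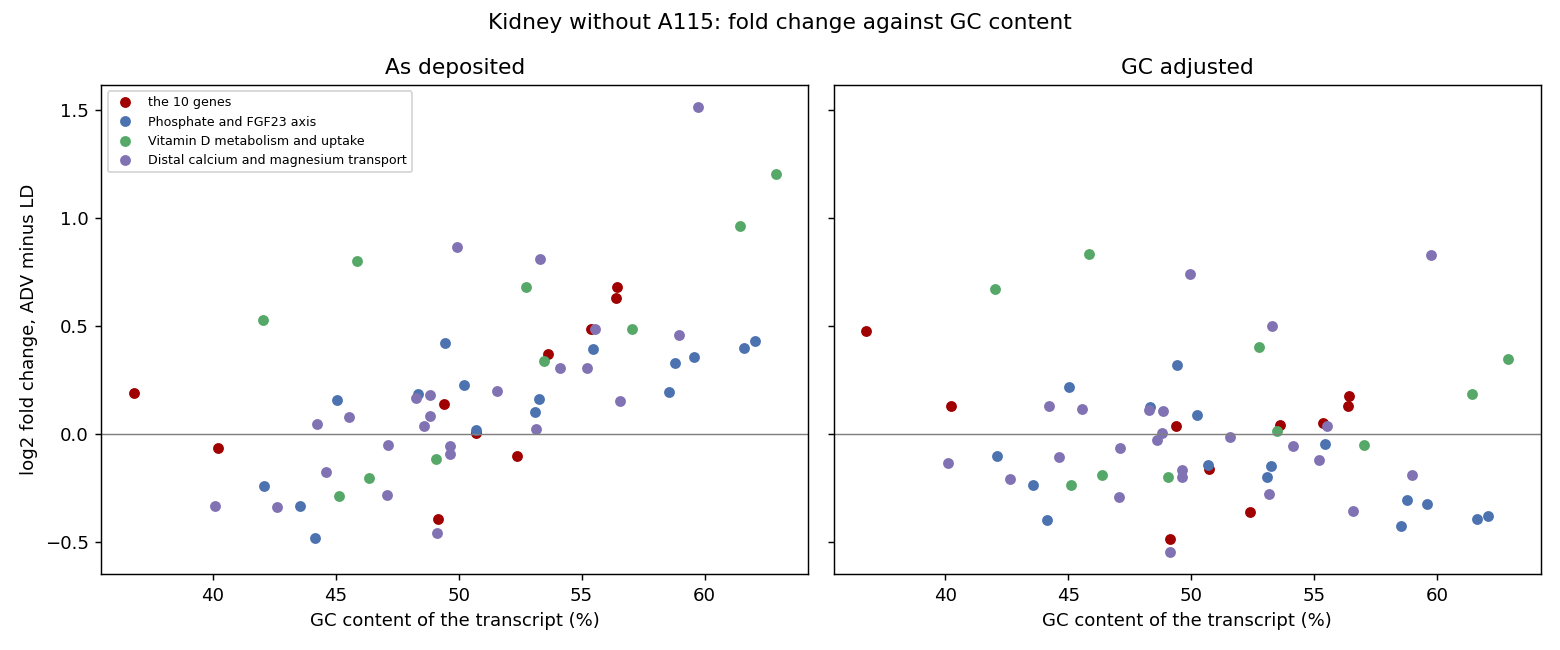
Log2 fold change in the kidney without A115 (ADV minus LD) against the GC content of the transcript (%) for the 10 genes and the tested genes of the 3 lists, from the deposited values (left) and after the GC adjustment (right). Before the adjustment the fold changes climb with GC content up to 1.51 for Cldn19, and after it Slc34a1, Slc34a3 and Fgfr1 lie between 0.048 and 0.18.

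Of all genes tested, those whose kidney level was most like that of Kl over the 8 mice were Folr1, Nit2, Fn3k, Baiap3 and Slc2a5. Their Pearson r with Kl on the log2(FPKM + 0.1) scale was 0.992, 0.992, 0.990, 0.990 and 0.988. Their transcripts had a GC content between 45.2% and 59.5%. The 8 points share the low value of A115.

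The promoter window from 250 bases before to 50 bases after the start was found in RefSeq (GRCm38.p6) for 7 of the 10 genes, not for Cyp24a1, Calb1 and Fgfr1. The E-box of the circadian clock, CACGTG, was in 0 of these 7 windows and in 7.15% of all 32851 windows. The half-site of nuclear receptors, AGGTCA, was found on either strand in 1 of the 7, that of Slc34a3, and in 16.3% of all. A direct repeat of this half-site with a spacer of 3 bases (DR3), as the vitamin D receptor binds it, was in 0 of the 7 and in 0.0396% of all. The half-site is part of the direct repeat.

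The liver served as a contrast, and most of the 10 genes were near or below the limit of detection there. The tables of the organs were made apart, and levels are set side by side without a test. Slc34a1, Slc34a3, Cyp24a1 and Trpv5 had 0 fragments in all 8 livers. With a floor of 3 fragments per library, their mean kidney level was at least 24218-fold, 171-fold, 554-fold and 125-fold higher. Kl had 9 fragments in the 8 livers together, Calb1 had 4 and Cyp27b1 had 2.5, which puts the kidney at least 5363-fold, 2708-fold and 72.8-fold higher by the same floor. Floors and counts cover counting error only. Vdr had 39 fragments in 6 of the 8 livers, most of them in A75 (0.128 FPKM) and A94 (0.172 FPKM). The lowest kidney level of Vdr, 15.02 FPKM, was 87.3 times the highest liver level. The mean kidney level of Slc8a1 was 36.4 times that of the liver and that of Fgfr1 4.52 times.

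**Figure D5:**
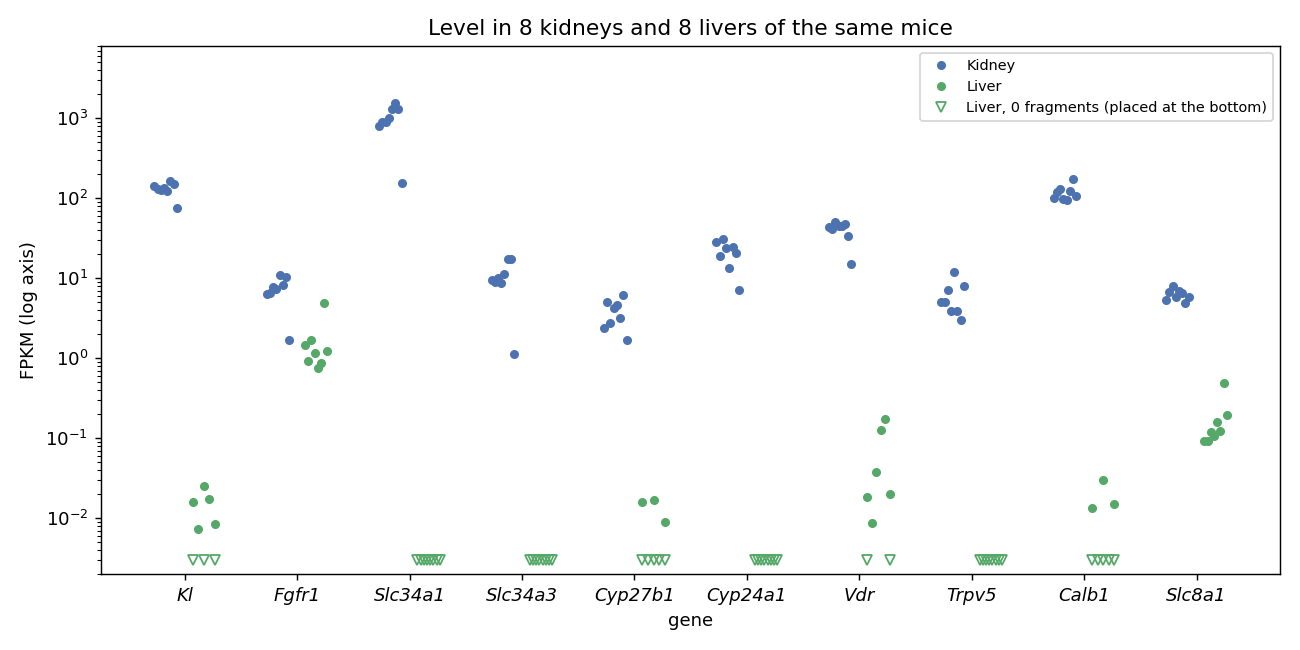
Level of the 10 genes (FPKM, log axis) in 8 kidneys and 8 livers of the same mice, as 1 point per library. Open triangles mark livers with 0 fragments. The organs overlap in Fgfr1 alone, where the kidney of A115 (1.67 FPKM) is below the liver of A94 (4.97 FPKM).

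Liver Fgfr1 was 1.47, 0.936, 1.69 and 1.17 FPKM in the LD mice and 0.747, 0.864, 4.97 and 1.24 FPKM in A75, A91, A94 and A115. The means were 1.32 ± 0.331 in LD and 1.96 ± 2.02 in ADV (SD, n = 4 each). The log2 fold change was 0.15 (SE 0.51, exact permutation p = 0.943) and turned to −0.43 (SE 0.23) without A94. A94 was 1 of the 8 livers and gave 566 of the 898 fragments of the ADV mice.

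Liver Slc8a1 was the only value of the 10 genes whose conditions did not overlap. It was 0.0923, 0.0927, 0.120 and 0.108 FPKM in the LD mice, with a mean of 0.103 ± 0.0132 (SD, n = 4). In A75, A91, A94 and A115 it was 0.158, 0.123, 0.492 and 0.194 FPKM, with a mean of 0.242 ± 0.169 (SD, n = 4). Each of these values rested on between 42 and 208 fragments over a long transcript. The log2 fold change was 0.64 (SE 0.32), beside a median of 0.096 over all liver genes, and the exact permutation p of 0.0286 is the smallest that 4 mice against 4 allow. By limma over 12835 genes the adjusted p was 0.457, and 0 of the 2 genes tested in the liver were called, against 0.00779% of all genes. At an unadjusted p under 0.05 there were also 0 of the 2, against 11.8% of all genes. Of all liver genes, 8.84% did not overlap between the conditions, 6.94% with the ADV mice higher. Without A94 the value was 0.34 (SE 0.19), and with a pseudocount of 0.5 or 1 in place of 0.1 it was 0.27 or 0.16. Limma-voom on the recovered fragments gave 1.01 (SE 0.43, unadjusted p = 0.0400, adjusted p = 0.443). Without a trend in the variance prior (unadjusted p = 0.0478, adjusted p = 0.426 by limma) and in a joint fit of the organs (unadjusted p = 0.0238, adjusted p = 0.649 by limma) the unadjusted p was under 0.05 as well. The summed level of 3 fibroblast markers in the liver was between 106 and 122 FPKM in LD and between 150 and 290 FPKM in ADV. That of 6 leukocyte markers was between 61.7 and 107 in LD and between 94.1 and 215 in ADV. Their part in the level of Slc8a1 was not tested.

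Whether the ADV condition went with another change in kidney than in liver could be asked for Fgfr1 and Slc8a1, which were tested in both organs. The kidney effect minus the liver effect was −0.28 (SE 0.81) for Fgfr1 and −0.72 (SE 0.36, unadjusted p = 0.0644 by limma) for Slc8a1, with an adjusted p of 0.9999 for both over 12319 genes. In this fit 0% of all genes were called, and 3.46% had an unadjusted p under 0.05. With the mouse as a replicate block, which pairs the organs of a mouse, the values were the same with an SE of 0.70 and 0.40. With the GC adjustment in each organ they were −0.20 and −0.55.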

How the data were processed

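Poly(A)-selected stranded paired-end RNA-seq of kidney and liver from 4 LD and 4 ADV mice gave 16 libraries. The authors trimmed reads with Trimmomatic, mapped them to GRCm38/mm10 with STAR (2.5.4b in the submitters' processing notes), removed reads with a mapping quality under 10 and ran Homer on the exons of UCSC known canonical genes. What they deposited are FPKM values, 1 table per organ, called RPKM in the column names and found to move in steps of 0.5 fragment. At 1 kb of exon 1 fragment is 0.0508 to 0.0584 FPKM in kidney and 0.0380 to 0.0440 in liver.

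Genes with mean FPKM times exon kilobases above 0.5 were tested in R 4.3.3 with limma 3.58.1 (lmFit, eBayes with trend) on log2(FPKM + 0.1), two-sided, with Benjamini-Hochberg adjustment over all of them at 0.05. The log2 scale with a pseudocount understates changes of low genes. The study's DESeq2 was not run, and limma-voom was run as an alternative on fragments recovered from the FPKM. The exact permutation test took all 70 assignments. Kidney and liver are paired by mouse through the numbers in the sample titles, and deviations of same-numbered organs correlated at −0.0242 to 0.553. GC content came from GENCODE M21 transcripts matched by symbol and closest length (96.2% of tested kidney genes) and was adjusted for by lowess with a span of 0.3 on the deviations of each library. Named list genes were the 4 with the largest absolute kidney fold change per list, and any called. The members and lists were chosen with earlier results of these data known. The limma fit of each organ was tested on simulated data. Alternatives were other pseudocounts (0.5 and 1), filters and scalings, limma-voom, a joint fit of the organs, a block for the mouse, leave-one-out and, added after the data had been seen, the GC adjustment.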

Additional observations from a re-analysis of the deposited data

Results flagged for a closer look

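In the ADV kidneys 3 of the 10 genes had 1 mouse far from the other 3, and it was A115 each time. The gap between A115 and the nearest ADV mouse, divided by the whole range of the 4 mice on the log2 scale, was 0.921 for Slc34a1, 0.844 for Fgfr1 and 0.836 for Slc34a3, above Dixon's 95% limit for 4 samples. In all, 24 groups were checked and 3 passed, and chance passes about 1 in 20. The 3 genes have transcripts with 55.4% to 56.4% GC, the richest of the 10. The library of A115 had the strongest trend with GC content of the 16 and the highest mitochondrial share of the kidneys, at 33.8%, and in the liver of the same mouse rho with GC content was −0.055 and the mitochondrial share 8.09%. Slc9a3r1, a partner of these cotransporters, was also lowest in A115, at 30.4 FPKM. After the GC adjustment A115 was still the lowest of the 8 kidneys for Slc34a1 (449 FPKM), Slc34a3 (3.53 FPKM) and Fgfr1 (4.51 FPKM), and for Kl and Cyp24a1. Calb1 and Slc8a1 were lowest in A115 only after the adjustment. The share of all genes that were lowest in A115 was not counted.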

How the results depend on the processing

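Apart from the settings that only leave out 1 mouse each, 146 of 159 values of the 10 genes kept their direction and stayed on the same side of the adjusted threshold. Values under other filters, without the variance trend, in the joint fit and with the mouse block keep their fold change by construction. None of the 10 genes was called in the main fits, so that a call could be gained but not lost. Slc34a1 turned to 0.0025 with quantile normalization, and liver Fgfr1 to −0.033. With A115 left out and median-ratio scaling, Slc34a1 (0.44), Slc34a3 (0.49), Fgfr1 (0.30), Trpv5 (−0.19) and Calb1 (−0.0011) turned. With the GC adjustment and A115 left out, Kl (0.038), Slc34a1 (0.13), Slc34a3 (0.18), Fgfr1 (0.048), Trpv5 (−0.16) and Slc8a1 (0.13) turned. The cause was not tested.

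Over all 8 choices of the mouse left out, the kidney log2 fold change ranged from −0.24 to 0.14 for Kl, −0.23 to 0.37 for Cyp27b1, −0.99 to −0.40 for Cyp24a1, −0.66 to −0.10 for Vdr, −0.48 to 0.63 for Slc34a1, −0.59 to 0.68 for Slc34a3, −0.40 to 0.48 for Fgfr1, −0.18 to 0.46 for Trpv5, −0.049 to 0.24 for Calb1 and −0.16 to 0.024 for Slc8a1. In the liver it ranged from −0.43 to 0.43 for Fgfr1 and from 0.34 to 0.81 for Slc8a1, and the difference between organs from −0.83 to 0.27 and from −0.93 to −0.33. The highest values for Kl, Cyp27b1, Cyp24a1, Vdr, Slc34a1, Slc34a3 and Fgfr1 in the kidney were those without A115. The members called in the kidney ranged from 0 to 3, the genes called from 0 to 2724 in kidney, 0 to 9 in liver and 0 to 458 for the difference between organs, where the 3, the 2724 and the 458 came without A115 and the 9 without A91.

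Of all genes, the kidney count of calls was 1 with no filter on low values, 1 with both organs in 1 fit and 2318 with A115 left out and median-ratio scaling. The liver count was 9 with no filter and 0 with quantile normalization, and the difference between organs gave 1 call with median-ratio scaling and 1 with the GC adjustment. The mouse as a replicate block left Fgfr1 at −0.28 and Slc8a1 at −0.72, and the pairing changed no call among the 10 genes. Kidney LD and ADV are different mice and could not be blocked. The fit of both organs at once held 2 of the 10 genes. Depth limits Slc34a3 in A115 (44.5 fragments), liver Slc8a1 and the 8 genes not tested in the liver.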

Other observations

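The kidneys with the highest levels of Trpv5 were A75 (11.9 FPKM), A115 (8.06 FPKM) and L86 (7.23 FPKM). The same 3 kidneys had the highest level of Havcr1, a marker of injured proximal tubule. Havcr1 was 111, 123 and 111 FPKM in A75, A115 and L86 and between 3.07 and 12.6 FPKM in the other 5. Lcn2, a second marker of tubular injury, was 191, 141 and 54.9 FPKM in these 3 and between 11.4 and 21.5 FPKM in the rest. Of these 3 kidneys, 2 were from ADV mice and 1 from an LD mouse, and no test was made.

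Other genes of mineral handling had their extremes in part of the same kidneys. Slc34a2 was 5.40, 2.99 and 4.88 FPKM in A75, A115 and L86 and between 0.669 and 1.14 FPKM in the other 5. Gc was 79.6, 123 and 35.8 FPKM in these 3, 36.1 FPKM in A94 and between 13.3 and 19.2 FPKM in the other 4. S100g was 232 and 159 FPKM in A75 and A115 but 515 FPKM in L86, beside 574 to 774 FPKM in the rest. Trpv6 was 1.82 FPKM in A75 and 0.600 FPKM in L86 but lowest in A115, at 0.197 FPKM, beside 0.283 to 0.592 FPKM in the rest. These genes were set beside Havcr1 after their values had been seen, and no test was made.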
